A study of Mus musculus with 6 samples.

Results

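The lower part of glycolysis was followed in HL-1 cells, a mouse line of atrial cardiomyocytes of tumour origin. Cultures spent 8 hours either in hypoxia at 1% oxygen or in normoxia at 21% oxygen, with 3 arrays for each condition. All 6 samples were confluent cultures of the same line with no other treatment, and each was hybridised to a one-colour Affymetrix mouse array. Whether each array stands for its own culture is not stated in the labels, so p-values reflect the spread among these arrays alone and that spread may be technical. The genes were chosen by name, as the enzymes from aldolase to pyruvate kinase: Aldoa, Aldoc, Tpi1, Gapdh, Pgk1, Pgam1, Eno1, Eno2, Eno3 and Pkm. The choice was made with earlier results of these data known. Shares and medians set beside those of all genes are therefore descriptions. Of 45037 probe sets (a probe set is a group of oligonucleotides read together as 1 signal), the platform annotation tied 20 to these 10 genes. For 8 genes it gave 17 probe sets with no other symbol, for Gapdh 3 probe sets shared with other symbols, and for Eno1 none, so Eno1 was not analysed here.

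In this stretch of the pathway a hexose bisphosphate is split into triose phosphates, which are oxidised and converted step by step to pyruvate, with ATP made by phosphoglycerate kinase and pyruvate kinase. Most of the enzymes are made in large amounts in nearly every cell. Several exist as paralogs with tissue preferences: aldolase C and enolase 2 in neurons, enolase 3 and phosphoglycerate mutase 2 in striated muscle. Many glycolytic genes are textbook targets of the hypoxia-inducible factors (HIF), which bind a short core motif in their promoters when oxygen is low.

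All 10 atrial markers checked were above the level used as a filter, a geometric mean signal of 14.1 over the 6 arrays. Their summed signal was 34309 to 36341 in hypoxia and 35916 to 37871 in normoxia, and 0 of them passed the test described below. The smooth muscle list was also bright (12106 to 15066 in hypoxia and 11312 to 13212 in normoxia), with 3 of 4 genes above the filter level and its defining gene Myh11 under it. Skeletal muscle markers summed to 496 to 652 and 487 to 570, with 3 of 6 above that level, and neuronal markers to 60.1 to 84.2 and 81.6 to 105, with 3 of 6. Fibroblast, endothelial and macrophage markers summed to at most 231 on any array, with 3 of 6, 1 of 5 and 3 of 4 above the filter level. On none of the 6 arrays was a marker of any of these lists at a signal of 0, and the part of other cell types in the results was not tested.

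Tpi1 and Pgk1 rose in hypoxia on most of their probe sets, and Aldoa rose on 1 of its 5. Pkm, Pgam1 and the brighter probe set of Aldoc were higher, and Eno3 lower, on every hypoxia array than on any normoxia array, but none of these 4 genes passed the test. Of the 17 probe sets with a single symbol, 16 lay above the filter level, for 7 genes. The test was limma with Benjamini-Hochberg adjustment over all 22518 probe sets above the filter, called at an adjusted p under 0.05. By this test 6 member probe sets were higher and 0 lower in hypoxia, where 0.533% of all probe sets tested were called higher and 0.0755% lower (0.608% in either direction). The share called in either direction was larger among bright probe sets. It was 0.207% at a geometric mean signal under 64, 1.67% from 2048 to 4096 and 2.55% from 4096 upwards. Of the 16 member probe sets, 5 lay from 2048 to 4096 and 6 from 4096 upwards. With each gene represented by its brightest probe set, 3 of the 7 genes rose (Aldoa, Tpi1 and Pgk1) and 0 fell, against 0.662% and 0.0882% of the 11332 genes tested. The median log2 fold change (hypoxia over normoxia, as throughout) was 0.57 over the 7 genes and -0.04 over all genes tested. In 11 of the 16 probe sets the groups did not overlap, 10 of them higher in hypoxia and 1 lower. Over the whole table of tested probe sets 16.5% had no overlap, 7.48% higher and 9.06% lower.

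**Figure D1:**
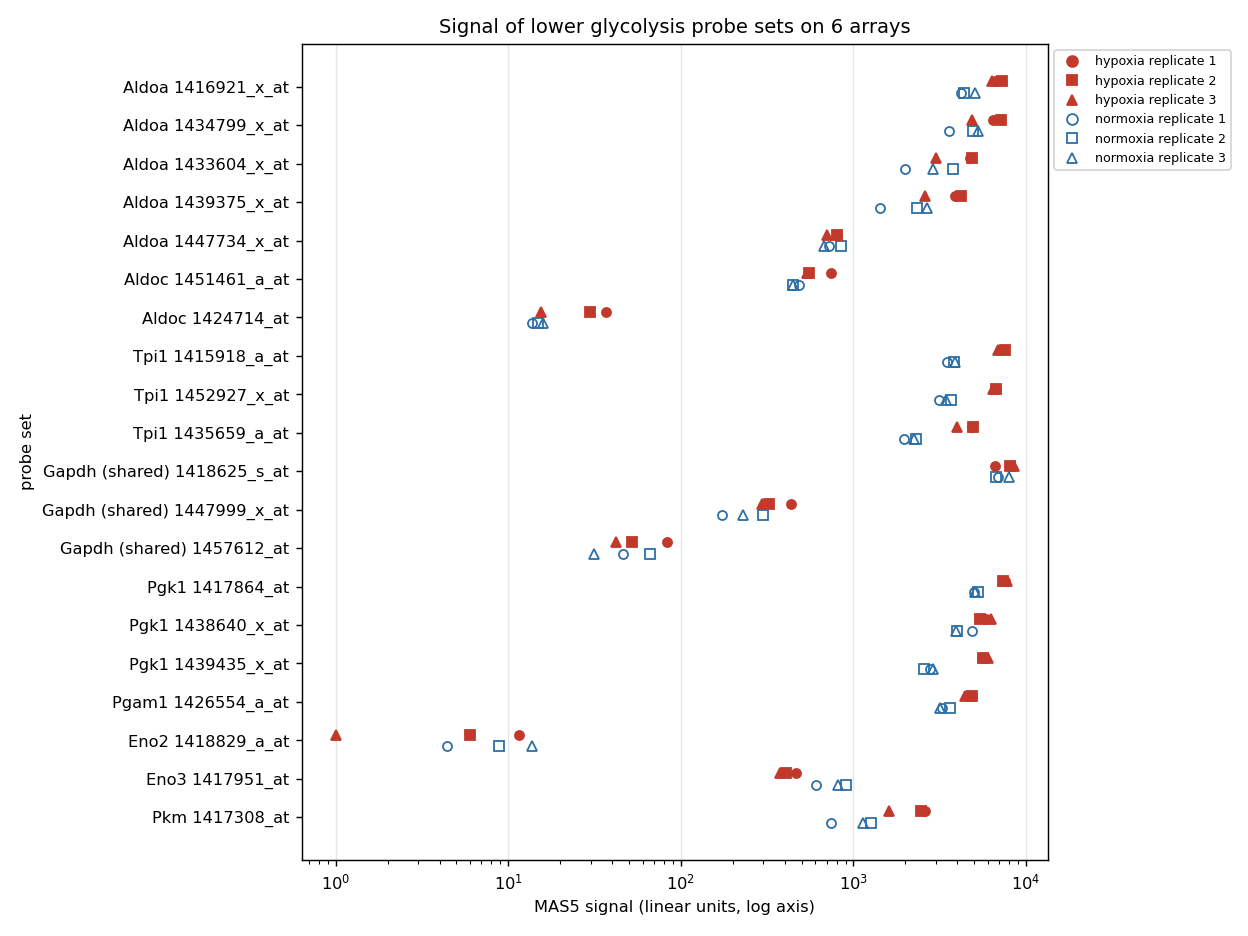
MAS5 signal (log axis) of the 20 probe sets tied to the members on each of the 6 arrays, hypoxia as filled red and normoxia as open blue symbols, 1 symbol shape per replicate number. The hypoxia symbols of Tpi1 and Pgk1 lie to the right of all normoxia symbols, those of Eno3 to the left, and the signals of Eno2 stay at or under 13.7.

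**Figure D2:**
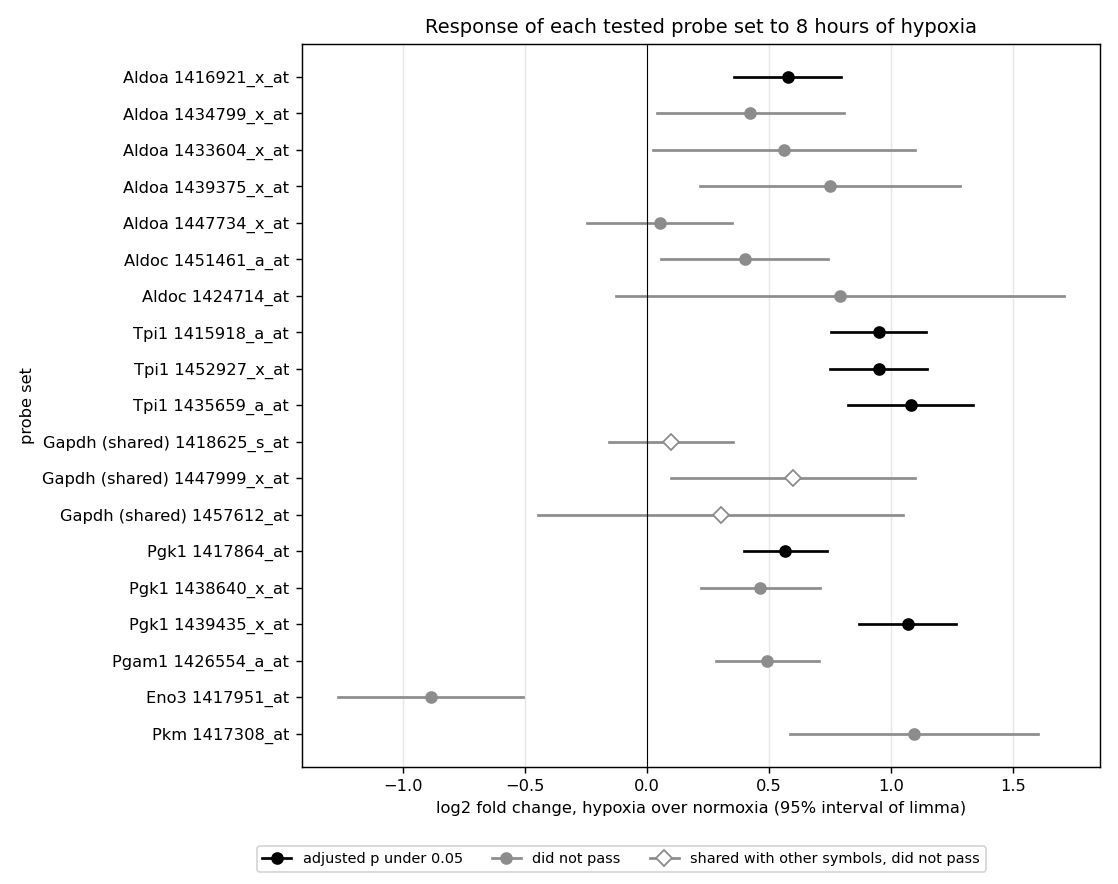
log2 fold change of each tested probe set with the 95% interval of limma (lines), black where the adjusted p was under 0.05. The intervals of the 3 Tpi1 probe sets lie between 0.75 and 1.34, the interval of Eno3 is the only one wholly below 0, and the 5 Aldoa probe sets range from 0.05 to 0.75.

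The promoters of the members were read for the HIF core motif, since 3 of the 7 tested genes rose in hypoxia. The motifs searched were ACGTG and GCGTG on both strands (CACGT and CACGC on the printed strand), within the 250 bases before each start annotated by RefSeq in GRCm38.p6, with overlapping matches counted as 1 site. All 10 members had at least 1 such window, 16 in all. Sites were present for 8 of the 10 genes and in 12 of the 16 windows, where 38.6% of 32851 windows of all genes held at least 1. Overlapping windows of Aldoa, and likewise of Eno1, held the same sites, so the 12 are not all separate. The 8 genes include Gapdh and Eno1, for which no expression value of the gene alone was available. By gene, 41.5% of all genes with a window had a site in any of theirs. Among the 16422 windows within the range of GC content of the members (50.4% to 71.2%), 49.7% did. A match is a description of the letters and not evidence of binding. Shown are the promoters of the 3 genes that rose, of Pgam1 with the most sites in 1 window and of Eno3 with the opposite direction, each 5′ to 3′ on the strand of the gene and ending at the last base before the start. Capitals mark the core motifs.
Pgk1 promoter, chrX:106186850-106187099, plus strand: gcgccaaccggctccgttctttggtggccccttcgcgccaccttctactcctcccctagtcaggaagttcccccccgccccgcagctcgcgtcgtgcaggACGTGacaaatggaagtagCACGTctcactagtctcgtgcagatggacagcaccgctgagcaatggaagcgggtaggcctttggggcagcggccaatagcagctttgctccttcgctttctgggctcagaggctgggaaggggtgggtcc
Aldoa promoter, chr7:126799179-126799428, minus strand: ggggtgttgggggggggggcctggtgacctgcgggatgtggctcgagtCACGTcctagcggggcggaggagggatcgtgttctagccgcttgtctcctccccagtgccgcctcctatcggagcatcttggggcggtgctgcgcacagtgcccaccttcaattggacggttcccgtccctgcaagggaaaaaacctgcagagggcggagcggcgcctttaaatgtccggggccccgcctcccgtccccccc
Tpi1 promoter, chr6:124814159-124814408, minus strand: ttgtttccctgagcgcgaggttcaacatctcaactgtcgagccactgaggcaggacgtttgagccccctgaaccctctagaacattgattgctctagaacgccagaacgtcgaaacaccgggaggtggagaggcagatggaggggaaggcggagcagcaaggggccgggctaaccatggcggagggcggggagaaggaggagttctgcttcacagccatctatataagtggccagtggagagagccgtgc
Pgam1 promoter, chr19:41911621-41911870, plus strand: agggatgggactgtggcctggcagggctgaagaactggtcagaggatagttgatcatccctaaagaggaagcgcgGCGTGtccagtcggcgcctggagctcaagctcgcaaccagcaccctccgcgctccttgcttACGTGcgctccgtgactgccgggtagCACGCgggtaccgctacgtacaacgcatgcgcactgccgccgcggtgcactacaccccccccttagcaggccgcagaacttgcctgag
Eno3 promoter, chr11:70656926-70657175, plus strand: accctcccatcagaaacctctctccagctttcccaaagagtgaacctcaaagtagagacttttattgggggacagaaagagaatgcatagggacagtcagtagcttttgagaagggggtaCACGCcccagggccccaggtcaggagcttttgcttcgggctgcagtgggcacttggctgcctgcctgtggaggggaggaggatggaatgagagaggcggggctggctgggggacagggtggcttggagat

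Pgk1 carried 2 sites with the core ACGTG in opposite orientation, beginning 150 and 131 bases before its start. The core of Aldoa began 202 bases before the start shown and 126 before another of its 3 annotated starts, as the same site. Pgam1 held 3 sites, beginning 175, 114 and 88 bases before its start. Eno3, the gene with lower signals in hypoxia, held 1 site of the GCGTG type 130 bases before its start. Tpi1, whose 3 probe sets all rose, held none of these letters in its window. Of the 2 starts of Pkm only 1 had a site, 75 bases before it. Bases outside these windows were not searched, Eno3 did not pass the test described above, and a role of HIF in the responses was not tested.

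**Figure D3:**
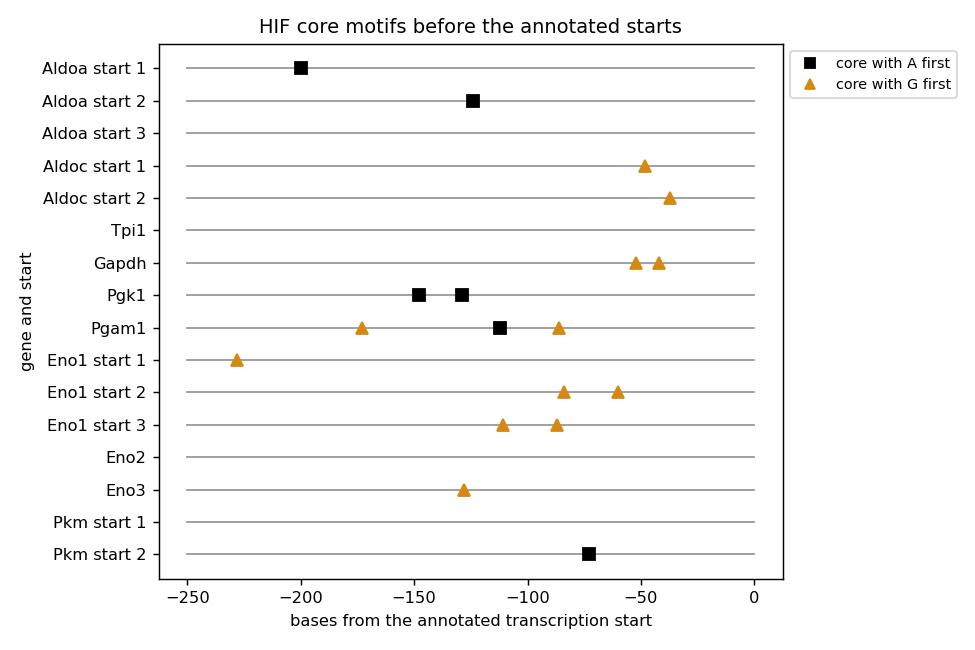
Positions of the HIF core motif in the 250 bases before each annotated start of the 10 members (x axis, bases from the start), with ACGTG as black squares and GCGTG as orange triangles, either strand. The lines of Tpi1, Eno2, the third start of Aldoa and the first start of Pkm hold no symbol, and Pgam1 holds 3.

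Aldolase cleaves fructose 1,6-bisphosphate, and Aldoa encodes the form found in muscle and most other tissues. Its brightest probe set, 1416921_x_at, had signals of 6628, 7212 and 6361 on the hypoxia arrays and 4198, 4346 and 5040 on the normoxia arrays. The groups did not overlap, and the rise was 1.49-fold (log2 fold change 0.58, SE 0.10, adjusted p = 0.0331). The call was kept in only 1 of the 6 fits with 1 array left out, the one without hypoxia replicate 3 (adjusted p = 0.0394), and was lost in the other 5 (without hypoxia replicate 1 0.177, hypoxia replicate 2 0.154, normoxia replicate 1 0.0638, normoxia replicate 2 0.139 and normoxia replicate 3 0.0617). It was also lost with quantile normalization (0.0698), cyclic loess (0.147), no filter (0.134), the filter at the 25th percentile (0.0562), eBayes without trend (0.287) and the replicate block (0.0961). Nor was Aldoa called when all tested probe sets of each gene were averaged. Probe sets 1434799_x_at, 1433604_x_at and 1439375_x_at had log2 fold changes of 0.42, 0.56 and 0.75 with SEs of 0.17, 0.24 and 0.24, and their groups overlapped (adjusted p = 0.409, 0.434 and 0.275). On all of these 3, as on 1416921_x_at, the lowest hypoxia array was replicate 3 and the lowest normoxia array replicate 1. Their coefficients of variation within a group were 19.1% to 31.2%, against 6.47% and 9.93% for 1416921_x_at.

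The dimmest Aldoa probe set, 1447734_x_at, did not move with the others. Its signals were 808, 805 and 703 in hypoxia and 723, 845 and 671 in normoxia (log2 fold change 0.05, 95% interval -0.25 to 0.35, adjusted p = 0.914). Over the alternatives its log2 fold change ran from -0.02 to 0.16, so its direction was not fixed. Within each array, the log2 distance between 1416921_x_at and 1447734_x_at was 3.04, 3.16 and 3.18 in hypoxia and 2.54, 2.36 and 2.91 in normoxia. The change of 0.52 had an exact permutation p = 0.1 (two-sided), the smallest that 3 against 3 arrays allow, and 0.2 adjusted over the 4 such pairs compared. This pair was added after its values were seen, so the p-value is only a description. All 5 Aldoa names end in x_at, the array maker's mark for probe sets whose oligonucleotides may also match other transcripts. Aldoa could therefore not be tested in the alternative that left such probe sets out. The mark is also carried by Tpi1 1452927_x_at, Pgk1 1439435_x_at and 1438640_x_at, and the shared Gapdh 1447999_x_at. In that alternative, which also left out names ending in s_at, Tpi1 and Pgk1 were called.

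Aldoc encodes the brain form of aldolase. Its brighter probe set, 1451461_a_at, had signals of 743, 552 and 539 in hypoxia and 485, 444 and 448 in normoxia. The groups did not overlap, with hypoxia replicate 1 standing highest, and the log2 fold change of 0.40 (SE 0.15, 95% interval 0.06 to 0.74) did not pass (adjusted p = 0.383). The other, 1424714_at, lay close to the filter level, at 36.7, 29.7 and 15.5 against 13.7, 14.9 and 16.0, with groups that overlapped (log2 fold change 0.79, SE 0.41, adjusted p = 0.531). The change in the ratio of Aldoa to Aldoc was 0.18 on the log2 scale (exact permutation p = 0.4, two-sided, also after adjustment over the 4 pairs). With all tested probe sets of each gene averaged it was -0.12 (exact permutation p = 0.5), so these arrays did not separate the responses of the 2 aldolases.

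Tpi1 encodes triosephosphate isomerase, which interconverts the products of aldolase. Its 3 probe sets had the same direction and a similar size of change. The brightest, 1415918_a_at, had signals of 7093, 7595 and 6838 in hypoxia and 3466, 3813 and 3879 in normoxia. The lowest hypoxia array stood far above the highest normoxia array, and the rise was 1.93-fold (log2 fold change 0.95, SE 0.09, adjusted p = 0.00134). Probe set 1452927_x_at gave 6663, 6657 and 6454 against 3132, 3689 and 3448 (log2 fold change 0.95, adjusted p = 0.00146). Probe set 1435659_a_at gave 4869, 4924 and 4001 against 1953, 2308 and 2256 (log2 fold change 1.08, SE 0.11, adjusted p = 0.0025). All 3 passed in each of the 6 fits with 1 array left out, with the largest adjusted p at 0.0357. In the variance model without a trend none of the 3 passed (adjusted p = 0.102 for each).

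Gapdh encodes the dehydrogenase that oxidises glyceraldehyde 3-phosphate, and it is widely used as a reference gene. Its 3 probe sets also carry the symbols of pseudogenes and other loci, so no value can be given to Gapdh alone. The brightest, 1418625_s_at, shared by 5 symbols, had signals of 6573, 8060 and 8514 in hypoxia and 6861, 6718 and 7964 in normoxia. The groups overlapped, with a log2 fold change of 0.10 (SE 0.11, 95% interval -0.15 to 0.35, adjusted p = 0.783) that ran from -0.02 to 0.21 over the alternatives. The upper end of that interval lies below the lower end of the interval of each Tpi1 probe set, though the difference between the probe sets was not tested. The dimmer 1447999_x_at had 432, 323 and 297 against 174, 301 and 230 (log2 fold change 0.60, SE 0.22, adjusted p = 0.372), and 1457612_at, at most 82.7 on any array, a log2 fold change of 0.30 (adjusted p = 0.778). Gapdhs, the sperm form, had signals of 2.8 to 41.3 and did not pass (adjusted p = 0.657).

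Pgk1 encodes phosphoglycerate kinase, the first step that makes ATP. Its brightest probe set, 1417864_at, was at 7565, 7373 and 7717 in hypoxia and 4971, 5280 and 5049 in normoxia. These were among the tightest groups of all members, with coefficients of variation of 2.28% and 3.15%, and the rise was 1.48-fold (log2 fold change 0.57, SE 0.08, adjusted p = 0.0112). The call was lost without hypoxia replicate 1 (adjusted p = 0.0896), without hypoxia replicate 2 (0.0568) and without normoxia replicate 3 (0.0772). It was also lost with cyclic loess (adjusted p = 0.0511), no filter (0.102) and eBayes without trend (0.258). Probe set 1439435_x_at rose more, 2.10-fold, from 2765, 2560 and 2896 to 5571, 5648 and 5993 (log2 fold change 1.07, SE 0.09, adjusted p = 0.000932). It had the smallest adjusted p of all member probe sets and passed in all 6 fits with 1 array left out (adjusted p up to 0.0139). The third, 1438640_x_at, had 5861, 5371 and 6291 against 4874, 3959 and 3909, groups that did not overlap, and did not pass (log2 fold change 0.46, SE 0.11, adjusted p = 0.125). The log2 distance of 1439435_x_at to 1417864_at changed by 0.50 between conditions, with no overlap (exact permutation p = 0.1, two-sided, the smallest possible, and 0.2 adjusted over the 4 pairs). As this pair was also added after its values were seen, its p-value is only a description. Pgk2, the testis form, had signals of 0.3 to 2.8.

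Pgam1 encodes the common phosphoglycerate mutase. Its single probe set, 1426554_a_at, had signals of 4877, 4847 and 4425 in hypoxia and 3275, 3631 and 3156 in normoxia. The groups did not overlap, and the log2 fold change of 0.49 (SE 0.09, 95% interval 0.28 to 0.70) narrowly missed the threshold (adjusted p = 0.0589). It passed in 2 of 18 alternatives, the filter at the 75th percentile and array weights, and in the fit on gene means. Pgam2, the muscle mutase, was well above the filter level in these cells, at 1945, 2219 and 1993 in hypoxia and 1879, 1542 and 1735 in normoxia. Its groups did not overlap either, but the log2 fold change of 0.26 (SE 0.11, 95% interval 0.01 to 0.51) did not pass (adjusted p = 0.447). The ratio of Pgam1 to Pgam2, a pair added after its values were seen, changed by 0.23 on the log2 scale (exact permutation p = 0.3, two-sided, and 0.4 adjusted over the 4 pairs).

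Enolase makes phosphoenolpyruvate, and Eno3 encodes the form of striated muscle. It was the only tested member with lower signals in hypoxia: 462, 405 and 374 against 606, 902 and 810 on its single probe set, 1417951_at. The highest hypoxia array lay below the lowest normoxia array. The log2 fold change was -0.89 (SE 0.17, 95% interval -1.27 to -0.51), and it did not pass (adjusted p = 0.0603). It passed without normoxia replicate 1 (adjusted p = 0.016), which was the lowest normoxia array, and with array weights (0.0121). It did not pass in the other 5 fits with 1 array left out (adjusted p up to 0.291). Over the 18 alternatives the log2 fold change stayed between -1.05 and -0.77. Of the 6 skeletal muscle markers, Acta1 had mean signals of 494 in hypoxia and 443 in normoxia, Ckm 44.3 and 33.6 and Tnnt3 23.4 and 21.2. Myh4, Myh1 and Mylpf lay under the filter level, with means of at most 18.3 in either group, and 0 of the 6 passed the test.

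Eno2, the enolase of neurons, was at 11.5, 6.0 and 1.0 in hypoxia and 4.4, 8.9 and 13.7 in normoxia. Its only probe set lay under the filter level and was not tested in the main fit. With no filter its log2 fold change was -0.99 with an SE of 1.02 (adjusted p = 0.85), so the spread at such low signals was as large as the difference. Eno4, a testis enolase, had signals of 0.8 to 17.9 on its 3 probe sets. The planned ratios between enolases could not be formed, since Eno2 was not above the filter level and Eno1 was not analysed here.

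Pkm encodes the pyruvate kinase of muscle and most other tissues, whose splice forms were not told apart here. Its single probe set, 1417308_at, had signals of 2612, 2453 and 1605 in hypoxia and 742, 1261 and 1131 in normoxia. The groups did not overlap, with hypoxia replicate 3 and normoxia replicate 1 standing lowest in their groups. The 2.13-fold difference was among the largest of the members (log2 fold change 1.09, 95% interval 0.58 to 1.60), but with an SE of 0.23 it did not pass (adjusted p = 0.0817). The fit without hypoxia replicate 3 called it (adjusted p = 0.0199), as did those after centring each array on its median (0.0268) and those with array weights (0.013). Pklr, the pyruvate kinase of liver and red cells, had signals of 5.5 to 28.4 on its 3 probe sets, of which the 1 above the filter level did not pass (adjusted p = 0.654).

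The members differed in how far single arrays strayed from their group. Pkm deviated on the log2 scale by -0.44 on hypoxia replicate 3 and by -0.46 on normoxia replicate 1, and Eno3 by -0.33 on the latter. Pgk1 deviated by at most 0.05 in either direction on all 6 arrays. On hypoxia replicate 3 and on normoxia replicate 1, 6 of the 7 genes were below the mean of their group, with mean deviations of -0.14 on both. The median deviation of all tested probe sets was between 0.00 and 0.02 on every array. Across all tested probe sets, the deviations of these 2 arrays had a correlation of 0.32, the highest of the 9 pairs of a hypoxia with a normoxia array. The part of the arrays in the differences of Pkm and Aldoa was not tested beyond the fits that left them out.

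**Figure D4:**
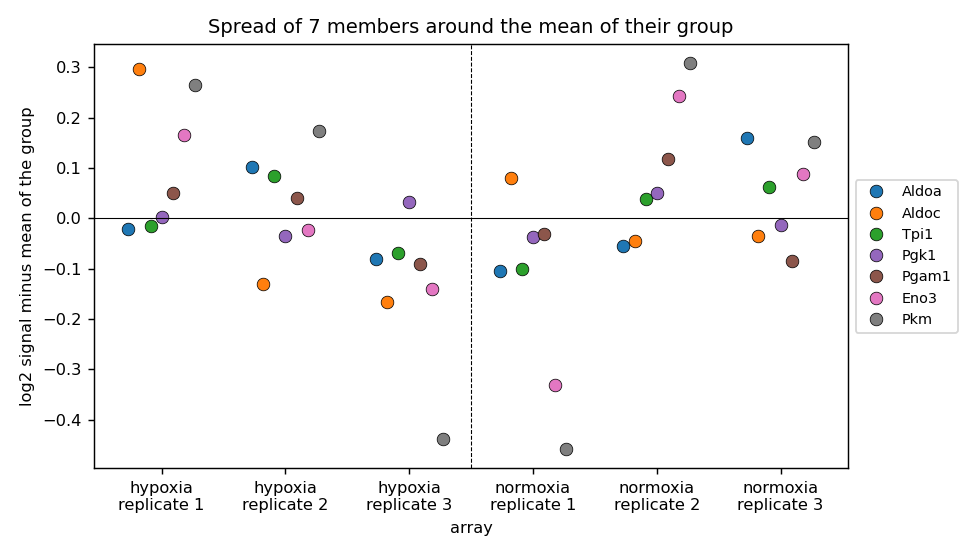
log2 signal minus the mean of its group for the representative probe set of the 7 tested members, by array. The points of Pkm fall lowest on hypoxia replicate 3 (-0.44) and normoxia replicate 1 (-0.46), while those of Pgk1 lie close to 0 on every array.

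Some member probe sets were among the brightest on these arrays, where a scanner or the oligonucleotides could reach their upper limit, while those of Aldoc, Eno2 and Eno3 were far dimmer. Of 22518 tested probe sets, 275 had a geometric mean signal of at least 4096, and 6 of the 16 tested member probe sets were among these: 2 of Aldoa, 2 of Tpi1 and 2 of Pgk1, beside the brightest of the shared Gapdh probe sets. The brightest member probe set of a single gene, Pgk1 1417864_at, ranked between 32 and 198 on the 6 arrays and reached 49.4% to 80.7% of the brightest probe set of the array. Among the 275 probe sets, 90% of log2 fold changes lay between the 5th percentile of -0.07 and the 95th of 0.35, with a median of 0.09. In the class from 256 to 512 these were -0.44, 0.49 and 0.00. The median SE differed as well, at 0.09 in the brightest class and 0.16 in the class from 256 to 512. Why the range was narrower, more so on its lower side, was not tested. The largest log2 fold change was 2.78 among the 2582 probe sets of that class, and 2.61, 2.87 and 2.13 in the next 3 classes, each spanning a doubling of signal. In the brightest class, with far fewer probe sets, it was 0.95 and belonged to Tpi1.

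Within a gene, the dimmer probe sets did not always show the larger change. For Tpi1 the dimmest had the largest log2 fold change, 1.08 against 0.95 and 0.95. For Pgk1 the dimmest had 1.07, but the brightest, 0.57, had more than the middle one, 0.46. For Aldoa the dimmest had the smallest, 0.05, and the values from brightest to dimmest were 0.58, 0.42, 0.56, 0.75 and 0.05. For the shared Gapdh probe sets, in the same order, they were 0.10, 0.60 and 0.30. Signals of single oligonucleotides and scanner flags were not used here, so an upper limit on bright signals was not tested.

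**Figure D5:**
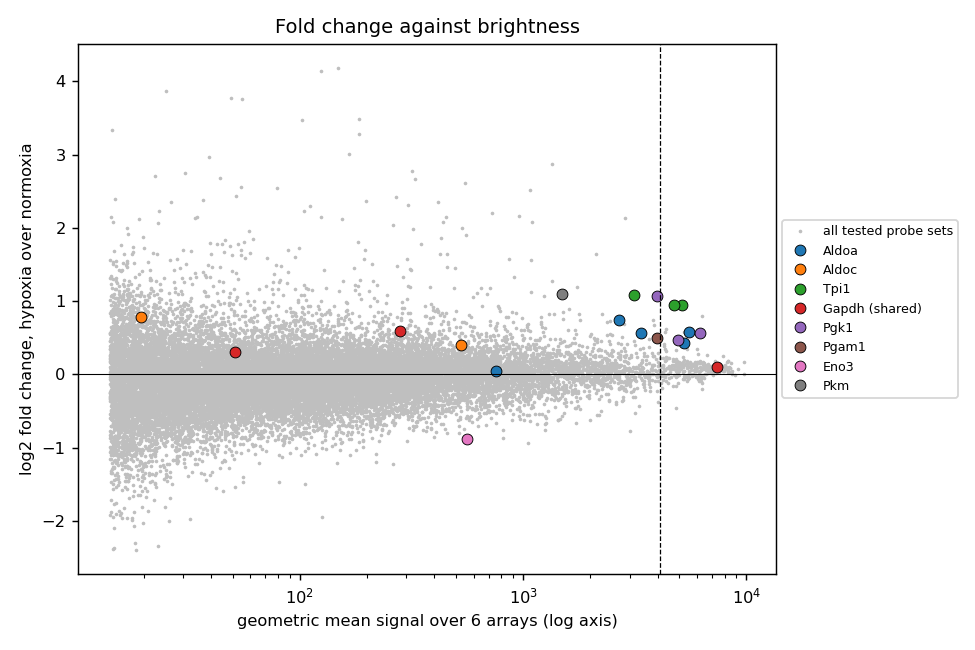
log2 fold change of all 22518 tested probe sets (grey) and of the member probe sets (coloured) against the geometric mean signal over 6 arrays (log axis). The dashed line marks 4096, above which the grey points narrow and the 2 Tpi1 points at 0.95 are the highest.

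Steps before and after these enzymes were described by a list of 30 genes, of which 25 were tested. This list too was chosen with earlier results of these data known. Of these, 6 rose and 0 fell, where 0.662% of all genes tested were called higher and 0.0882% lower. The median log2 fold change was 0.12 over the list and -0.04 over all genes tested. Slc2a1, the glucose transporter GLUT1, rose by 2.08 (SE 0.14, adjusted p = 0.00038), Ldha, which turns pyruvate into lactate, by 0.80 (SE 0.08, adjusted p = 0.00213), Pfkp, a phosphofructokinase subunit, by 0.90 (SE 0.11, adjusted p = 0.00527) and Pdk1, a kinase that inhibits pyruvate dehydrogenase, by 2.35 (SE 0.30, adjusted p = 0.00756). Without hypoxia replicate 1 only 2 of the list passed, and Pfkp and Pdk1 did not (adjusted p = 0.0535 and 0.0716). The brightest genes of the list that did not pass were the lactate carrier Slc16a1 (log2 fold change 0.01), the pyruvate carrier subunit Mpc1 (-0.20) and the pyruvate dehydrogenase subunit Pdha1 (-0.06), with adjusted p of 0.973, 0.536 and 0.91.

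Among 11325 other genes, the 5 whose log2 signals over the 6 arrays correlated best with Tpi1 were Ldha (r = 0.997), Tlcd3a (0.996), Celf2 (0.992), Sertad1 (0.99) and Dnajb9 (0.989). Those most like Pgk1 were Fam162a (0.999), Grhpr (0.998), Dnajb9 (0.995), Sh3bgrl2 (0.993) and Slc2a1 (0.992). Of these, Ldha, Tlcd3a, Fam162a, Grhpr and Slc2a1 rose in hypoxia, while Celf2, Sertad1, Dnajb9 and Sh3bgrl2 did not pass the test. The correlations run over 6 arrays in 2 groups and hold the difference between the groups, and 84 genes for Tpi1 and 87 for Pgk1 reached 0.95.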

How the data were processed

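The values were the authors' deposited MAS5 signal intensity, 1 value per probe set and array on a linear scale, per the submitters' processing notes, which give no version or settings. MAS5 summarises each array alone and is noisy near background. Array medians were 15.0 to 19.0, maxima 9203 to 11642, and 0 of 15 pairs of arrays were identical; the number of arrays limits the precision. From these values, 10 zeros were set to 0.1, all were log2 transformed, and probe sets with a mean log2 signal above the median of all were kept (22518 of 45037). Hypoxia was compared with normoxia by limma 3.58.1 in R 4.3.3 (eBayes with trend, no covariates), with Benjamini-Hochberg adjustment over all kept, and checked on simulated data. The simulated arrays took their spread from the same fitted model, so they could not check the variance trend. Ratios within an array used exact permutation tests. In the platform annotation 34945 probe sets had 1 symbol, 932 several and 9160 none; those with several counted for no gene. A gene was represented by its brightest kept probe set. Every member is described; other glycolysis genes were named by rule, those that passed by the 4 smallest adjusted p and the 3 brightest of the rest. The members and lists were chosen with earlier results of these data known. Alternatives covered normalization, offset, filter, variance model, array weights, replicate block, probe set choice and single arrays left out.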

Additional observations from a re-analysis of the deposited data

How the results depend on the processing

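The direction of the 7 tested members was the same in every alternative run on their representative probe sets. Tpi1 was called in all but 1 of them, eBayes without trend, where 18 probe sets, 0 member probe sets, 0 member genes and 1 other glycolysis gene were called instead of 137, 6, 3 and 6. With array weights the first 3 counts were 437, 10 and 6. Cyclic loess and no filter each left 1 member gene, Tpi1. Leaving out 1 array gave 39 to 200 probe sets, 4 to 7 member probe sets, 1 to 4 member genes and 2 to 7 other glycolysis genes. The fewest probe sets came without hypoxia replicate 1 (39), followed by normoxia replicate 3 (45), hypoxia replicate 2 (63) and normoxia replicate 2 (83); of members, 1 gene, Tpi1, was called without each of the first 3. Centring on the median moved the median log2 fold change of all probe sets by 0.11. The change of the Aldoa to Aldoc ratio turned to -0.12 with probe sets averaged per gene; the cause was not tested. Same-numbered arrays deviated with correlations of -0.08, 0.21 and -0.14. With deviations taken within groups of 3, these values cannot settle whether the numbers pair the arrays. With the replicate block 105 probe sets, 5 member probe sets, 2 member genes and 5 other glycolysis genes were called. Aldoa was then lost (adjusted p = 0.0961). Pair changes of Pgam1 with Pgam2 and within Pgk1 and Aldoa were added after seeing the data. The number of arrays limits all of these.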
